A study of Homo sapiens with 4 samples.

Results

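Translation initiation factors, the proteins that bring a messenger RNA, the initiator tRNA and the ribosomal subunits together at a start codon, were followed on expression arrays of Hs683 cells. The genes were taken by name: every gene with a probe set of its own in the platform annotation and a current symbol beginning with EIF, without the EIF2AK kinases, the Argonaute genes once called EIF2C and pseudogenes. This gave 45 of the 17716 genes measured. Of these, 43 code for proteins and 2, EIF1B-AS1 and EIF3J-DT, are noncoding RNA genes that carry an EIF name, and they are described apart. The rule goes by name and uses no measured value, but it was set with earlier results of these data known. Each gene had a single such probe set.

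Hs683 is an established human glioma cell line. The 4 arrays held total RNA of cells in which QK had been knocked down. QK, now named QKI, codes for a glial regulator of RNA splicing and stability. In 2 of the arrays the cells had been transduced with miR-20a and in 2 with miR-NT, a microRNA of scrambled sequence that serves as the control. The knockdown was thus common to both groups, and no array of cells without it was analysed here. Whether the 2 replicates of a group came from separate cultures is not stated in the labels, and the p-values therefore rest on array-to-array spread that may be technical.

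Initiation in animal cells begins on the small ribosomal subunit. The factors eIF1, eIF1A, eIF3 and eIF5 load it, and eIF2 brings the initiator tRNA in a complex with GTP. After each round eIF2B recharges eIF2 with GTP, a step that stress kinases block by phosphorylating eIF2. The messenger RNA arrives through eIF4F, made of the cap-binding protein eIF4E, the scaffold eIF4G and the RNA helicase eIF4A, and eIF5B finally joins the large subunit. Supply of eIF4E is a classic control point of growth: the 4E-binding proteins hold it back until mTOR phosphorylates them. MicroRNAs act on the same machinery, since the silencing complex they guide lowers both the translation and the stability of its targets.

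The sequences of miR-20a itself, from RefSeq on GRCh38.p14, are shown because its seed, bases 2 to 8 in capitals, is the part that pairs with targets. Both arms lie on the plus strand of chromosome 13, the 5p arm at chr13:91351072-91351094 and the 3p arm at chr13:91351108-91351129. No 3' untranslated region of an initiation factor gene was searched for this seed here.
hsa-miR-20a-5p: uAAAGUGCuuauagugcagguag
hsa-miR-20a-3p: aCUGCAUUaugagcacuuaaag

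The arrays were close in scale, with medians between 6.43 and 6.45 over all probe sets on the log2 scale. The interquartile range was 3.14 and 3.03 in the miR-NT controls and 3.06 and 2.92 with miR-20a. The control probe set at the 5' end of ACTB read 12.78 and 12.66 in the miR-NT controls and 11.59 and 10.43 with miR-20a. Such a signal can follow RNA or labelling quality or the level of the transcript, and which of these it followed was not tested. The 5' control of GAPDH read 13.89 and 13.81 in the miR-NT controls and 13.17 and 12.30 with miR-20a. Both controls were lowest on miR-20a replicate 2. The median of each complex once the ACTB 5' signal was a covariate is given beside its results. This signal did not overlap between the groups, so the covariate takes up part of their difference. That model carries a further term and keeps fewer residual degrees of freedom than the 2 of the main test. Its medians are set beside the others as a check and not as corrected values. QKI read 8.14 and 7.92 in the miR-NT controls and 7.52 and 7.08 with miR-20a (limma adjusted p = 0.106). Of 13 markers of glial cells and astrocytoma lines, 8 were above the dimmest 30% of genes, among them VIM and CD44; GFAP, S100B and OLIG2 were below it. Of 4 measured immune markers 2 were above it, of 5 epithelial markers 2, of 4 endothelial markers 1 and of 4 neuronal markers 3.

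The initiation factor genes as a whole read slightly lower with miR-20a, and none of them passed the test. After the dimmest 30% of genes were left out, 38 of the 43 protein-coding members remained among 12401 genes tested. At a limma adjusted p under 0.05, 0 of the 38 were lower and 0 were higher, against a background of 0.00806% of all tested genes lower and 0% higher. At an unadjusted p under 0.05, 6 of the 38 were lower (background 13.2%) and 4 were higher (background 5.82%). The 2 miR-20a arrays were both lower than the 2 controls in 17 members, or 44.7% (background 31.1%), and above them in 8, or 21.1% (background 25.1%). The log2 fold change was below 0 in 30 members, 78.9% (background 53.8%), and above 0 in 8 (background 46.2%). Its median was −0.13 over the members and −0.02 over all tested genes, and single members ranged from −0.63 to 0.36. In such bulk RNA, less transcript per cell and fewer cells that make it cannot be told apart.

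Most initiation factors are abundant, and 33 of the 38 lay among the brightest 25% of the tested genes. Those genes as a whole had a median log2 fold change of −0.09, while the 33 members in it had −0.14. Both miR-20a arrays were below both miR-NT arrays in 41.5% of those genes and in 15 of the 33 members. After quantile normalization, which gives all 4 arrays the same distribution, the median of the 38 members was −0.005 and that of all genes 0.03. The members then stood at 20 below 0 (background 45.1%) and 18 above (background 54.9%), and 0 passed at an adjusted p under 0.05 in limma (background 0.0403% lower and 0% higher). Those with groups that did not overlap were 12 lower (background 26.7%) and 12 higher (background 33.5%). At an unadjusted p under 0.05 after this scaling, 4 members were lower (background 11.7%) and 5 higher (background 12.8%). The median of the factors was thus below 0 in the deposited scale. After quantile normalization it was near 0, at −0.005, and still below the 0.03 of all genes.

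**Figure D1:**
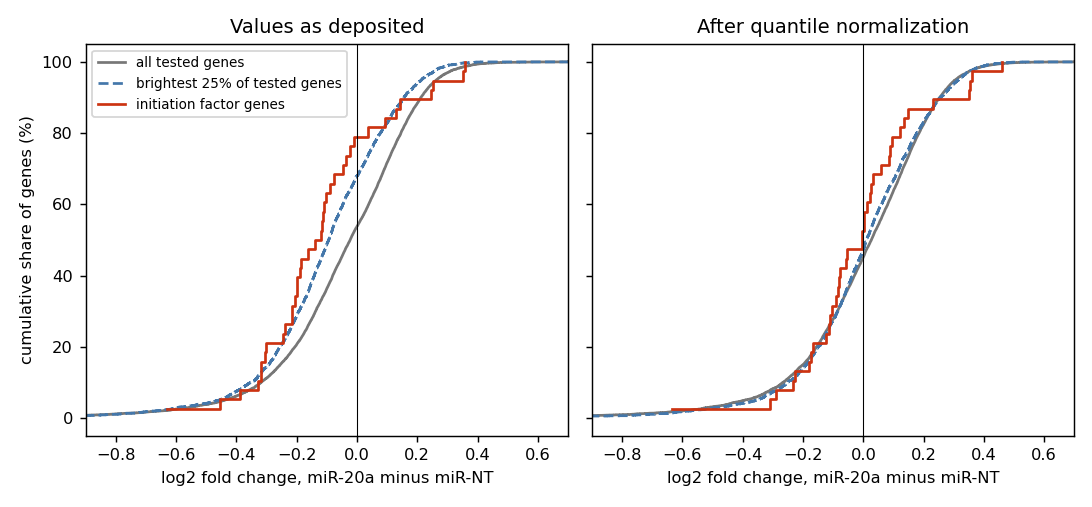
Cumulative share of genes (y axis, percent) at or below each log2 fold change of miR-20a minus miR-NT (x axis), for all 12401 tested genes (grey), the brightest 25% of them (dashed blue) and the 38 tested initiation factor genes (red). On the left, with values as deposited, the red line lies left of the grey one around its middle (medians −0.13 and −0.02); on the right, after quantile normalization, the medians are −0.005 and 0.03.

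Among the cap-binding factors, partners of the same complex stood on opposite sides. EIF4E, the cap-binding protein, read 9.93 and 9.87 in the miR-NT controls and 10.31 and 10.20 with miR-20a. Both miR-20a arrays were above both controls, by a log2 fold change of 0.35 (SE 0.10, limma adjusted p = 0.158). EIF4G1, the main scaffold that joins eIF4E to eIF4A and eIF3, read 12.03 and 11.92 in the miR-NT controls and 11.66 and 11.38 with miR-20a. It was lower on both miR-20a arrays than on either control, by a log2 fold change of −0.45 (SE 0.12, limma adjusted p = 0.144), the smallest p of all members. EIF4E2, also called 4EHP, binds the cap without joining eIF4G and acts as a repressor of translation. It read 10.49 and 10.43 in the miR-NT controls and 10.68 and 10.73 with miR-20a, higher on both miR-20a arrays (log2 fold change 0.25, SE 0.10, limma adjusted p = 0.239).

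The other members around eIF4F read between −0.22 and −0.12. EIF4H and EIF4B, which stimulate the helicase eIF4A, had log2 fold changes of −0.22 (SE 0.13) and −0.20 (SE 0.12). EIF4A3, a relative of eIF4A that sits in the exon junction complex, had −0.14 (SE 0.11). EIF4G2, also called DAP5, a scaffold that lacks the eIF4E-binding part, had −0.12 (SE 0.10). Of these, the groups did not overlap in EIF4H, where replicate 2 of miR-20a at 12.40 stood apart from the other 3 arrays, at 12.75 to 12.82. Over the 7 tested members the median was −0.14 on the log2 fold scale, with 5 below 0 and 2, EIF4E and EIF4E2, above; it was 0.19 under the ACTB 5' covariate. EIF4A1 and EIF4A2, the helicases of eIF4F, have probe sets that the annotation shares with other genes and were not used.

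EIF4EBP1, the 4E-binding protein that sequesters eIF4E, was nearly level. It read 10.55 and 10.40 in the miR-NT controls and 10.58 and 10.35 with miR-20a, with a log2 fold change of −0.01 (SE 0.12, limma adjusted p = 0.967). The miR-20a arrays spanned both controls, and the ACTB 5' covariate gave 0.34. EIF4EBP2 and the eIF4E transporter EIF4ENIF1 were among the genes left out as dim, with values of 4.05 to 4.45 and 4.11 to 4.33 over the 4 arrays, and overlapping groups in both.

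**Figure D2:**
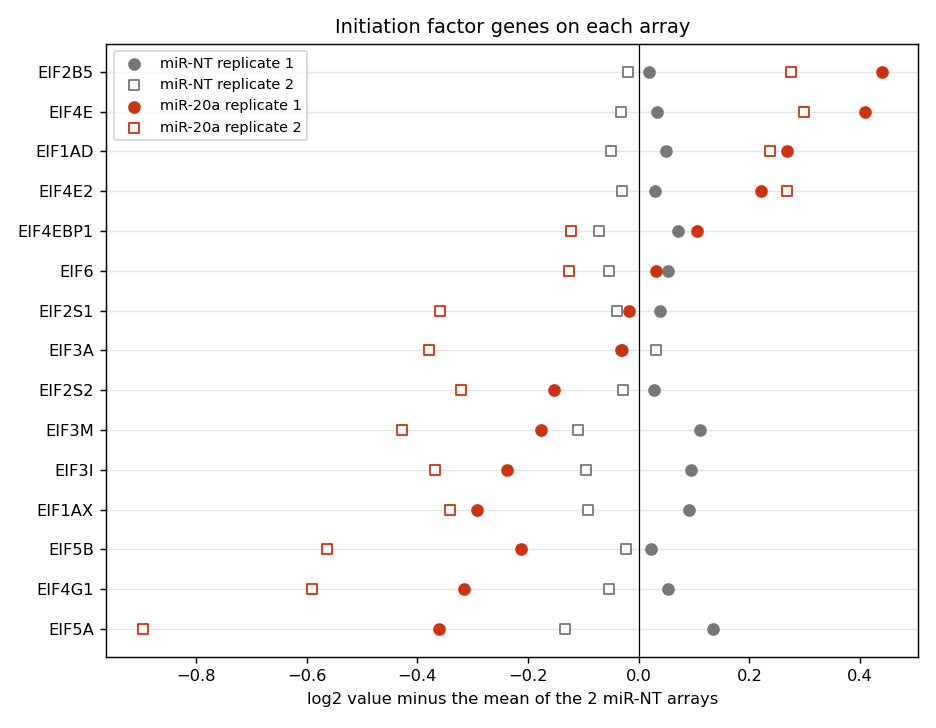
Log2 value on each array minus the mean of the 2 miR-NT arrays (x axis) for 15 initiation factor genes (rows): those with an unadjusted p under 0.05, the member with the smallest p of each complex, and EIF2S1, EIF3A and EIF6. Grey marks miR-NT and red miR-20a, filled circles replicate 1 and open squares replicate 2. EIF2B5, EIF4E, EIF1AD and EIF4E2 have both miR-20a arrays to the right of both controls, and for EIF5A, EIF4G1 and EIF5B the open red square of miR-20a replicate 2 lies farthest left.

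EIF5, EIF5A, EIF5B and EIF6 were set together by name rather than as a complex. Their median of −0.36 was the lowest of the factor sets, with all 4 tested members below 0. Under the ACTB 5' covariate the median was 0.19 and all 4 were above 0, and without miR-20a replicate 2 it was −0.17. EIF5A, which carries the modified amino acid hypusine and helps ribosomes through difficult peptide bonds, read 6.80 and 6.53 in the miR-NT controls and 6.30 and 5.77 with miR-20a. Both miR-20a arrays were below both controls. Its log2 fold change of −0.63, or 1.55-fold lower, was the most negative of the members (SE 0.18, limma adjusted p = 0.161). The difference within the miR-20a pair, −0.53, was almost as large as that between the groups. The gene has near-identical copies elsewhere in the genome, and how far its probe set separates them was not established. The EIF5A probe set was much dimmer than those of EIF5, EIF5B and EIF6, which read from 8.94 for EIF5B to 11.70 for EIF6. A stricter filter on dim genes left EIF5A out, and the median of the set was then −0.33. How well the EIF5A probe set reports its transcript was not tested.

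EIF5B, the GTPase that joins the large subunit, read 9.53 and 9.48 in the miR-NT controls and 9.29 and 8.94 with miR-20a (log2 fold change −0.39, SE 0.13, limma adjusted p = 0.202). EIF5, which makes eIF2 hydrolyse its GTP at the start codon, had a log2 fold change of −0.33 (SE 0.15, limma adjusted p = 0.274), again with both miR-20a arrays below the controls. EIF6, which keeps the large subunit from joining too early, was nearly level. It read 11.70 and 11.59 in the miR-NT controls and 11.67 and 11.52 with miR-20a, so that the groups overlapped (log2 fold change −0.05, SE 0.11, limma adjusted p = 0.794). EIF5A2, the second gene for eIF5A, was left out as dim at 4.36 to 4.64.

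The subunits of eIF2 itself all read lower in the deposited scale, by small amounts. Under the ACTB 5' covariate EIF2S1 was at 0.32 and EIF2S2 at 0.018, and the median of the 5 tRNA carriers was 0.088 where it was −0.16 without it. EIF2S2, the beta subunit, read 12.04 and 11.98 in the miR-NT controls and 11.85 and 11.69 with miR-20a, both below the controls (log2 fold change −0.24, SE 0.10, limma adjusted p = 0.273). EIF2S1, the alpha subunit that stress kinases phosphorylate, read 9.59 and 9.51 in the miR-NT controls and 9.53 and 9.19 with miR-20a. Here replicate 1 of miR-20a lay between the controls and only replicate 2 was below them (log2 fold change −0.19, SE 0.13, limma adjusted p = 0.427). EIF2S3, the GTP-binding gamma subunit, had a log2 fold change of −0.16 (SE 0.10), with groups that did not overlap. EIF2A and EIF2D, which can bring tRNA to the ribosome apart from eIF2, had −0.12 (SE 0.11) and −0.04 (SE 0.10), with overlapping groups.

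The subunits of eIF2B, the exchange factor that serves eIF2, went different ways. EIF2B5, the catalytic epsilon subunit, read 6.47 and 6.43 in the miR-NT controls and 6.89 and 6.73 with miR-20a. Both miR-20a arrays were above both controls. The log2 fold change of EIF2B5, 0.36 or 1.28-fold higher, was the most positive of the members (SE 0.10, limma adjusted p = 0.164). The EIF2B5 probe set was much dimmer than those of the other subunits, which read from 9.08 for EIF2B2 to 10.08 for EIF2B1. How well this probe set reports the EIF2B5 transcript was not tested. EIF2B1, the alpha subunit, was lower on both miR-20a arrays (log2 fold change −0.21, SE 0.11). EIF2B2, EIF2B3 and EIF2B4 read within 0.10 of the control mean on average, at −0.09, −0.08 and 0.04. The median of the 5 subunits was −0.08, and 0.13 under the ACTB 5' covariate.

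Of the 12 tested subunits of eIF3, the large scaffold on the small ribosomal subunit, 10 were below 0 on the log2 fold scale and 2 above it, around a median of −0.15. Under the ACTB 5' covariate this median was 0.20. EIF3I read 11.87 and 11.68 in the miR-NT controls and 11.53 and 11.40 with miR-20a (log2 fold change −0.30, SE 0.11, limma adjusted p = 0.220). EIF3M read 11.34 and 11.12 in the miR-NT controls and 11.05 and 10.80 with miR-20a (log2 fold change −0.30, SE 0.13, limma adjusted p = 0.259). Both genes had groups that did not overlap, but for EIF3M the gap between the nearest arrays was smaller than the spread within either pair. EIF3B, a core subunit, had the most negative value, −0.32, with a wider error (SE 0.15, limma adjusted p = 0.290). EIF3A, the largest subunit, read 10.05 and 10.11 in the miR-NT controls and 10.05 and 9.70 with miR-20a, so that its log2 fold change of −0.21 (SE 0.13, limma adjusted p = 0.394) rested on replicate 2 of miR-20a.

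The remaining eIF3 subunits ranged from −0.20 for EIF3H and −0.18 for EIF3E to −0.02 for EIF3G, with EIF3F, EIF3J and EIF3D between −0.11 and −0.10. The groups of EIF3E did not overlap, and those of the other 5 did. EIF3L and EIF3K, which bind each other at the edge of the complex, were the 2 subunits above 0. EIF3L read 13.02 and 12.95 in the miR-NT controls and 13.11 and 13.14 with miR-20a (log2 fold change 0.14, SE 0.10), and EIF3K had 0.09 (SE 0.09). Both were higher on both miR-20a arrays, and neither passed the limma test (adjusted p = 0.418 and 0.579). The EIF3K probe set read only 5.86 to 5.97, while the lowest value of any other tested eIF3 subunit was 9.70, for EIF3A. How well the EIF3K probe set reports its transcript was not tested. EIF3C shares its probe sets with the copy EIF3CL and was not used.

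The genes named after eIF1 and eIF1A were divided. EIF1AX, the X-linked gene of eIF1A, which keeps the scanning ribosome open, read 8.67 and 8.49 in the miR-NT controls and 8.28 and 8.24 with miR-20a. Both miR-20a arrays were below both controls (log2 fold change −0.32, SE 0.11, limma adjusted p = 0.199). EIF1, which guards the choice of start codon, was also lower on both (log2 fold change −0.24, SE 0.11, limma adjusted p = 0.281). EIF1AD, named for its resemblance to eIF1A, read 9.62 and 9.52 in the miR-NT controls and 9.84 and 9.81 with miR-20a, higher on both miR-20a arrays (log2 fold change 0.25, SE 0.10, limma adjusted p = 0.237). EIF1B, a close copy of EIF1, was left out as dim at 3.65 to 3.91. EIF1AY, the Y-linked copy of EIF1AX, is in the counts, and its values are not given. The 4 tested genes had a median of −0.06, and −0.02 under the ACTB 5' covariate.

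**Figure D3:**
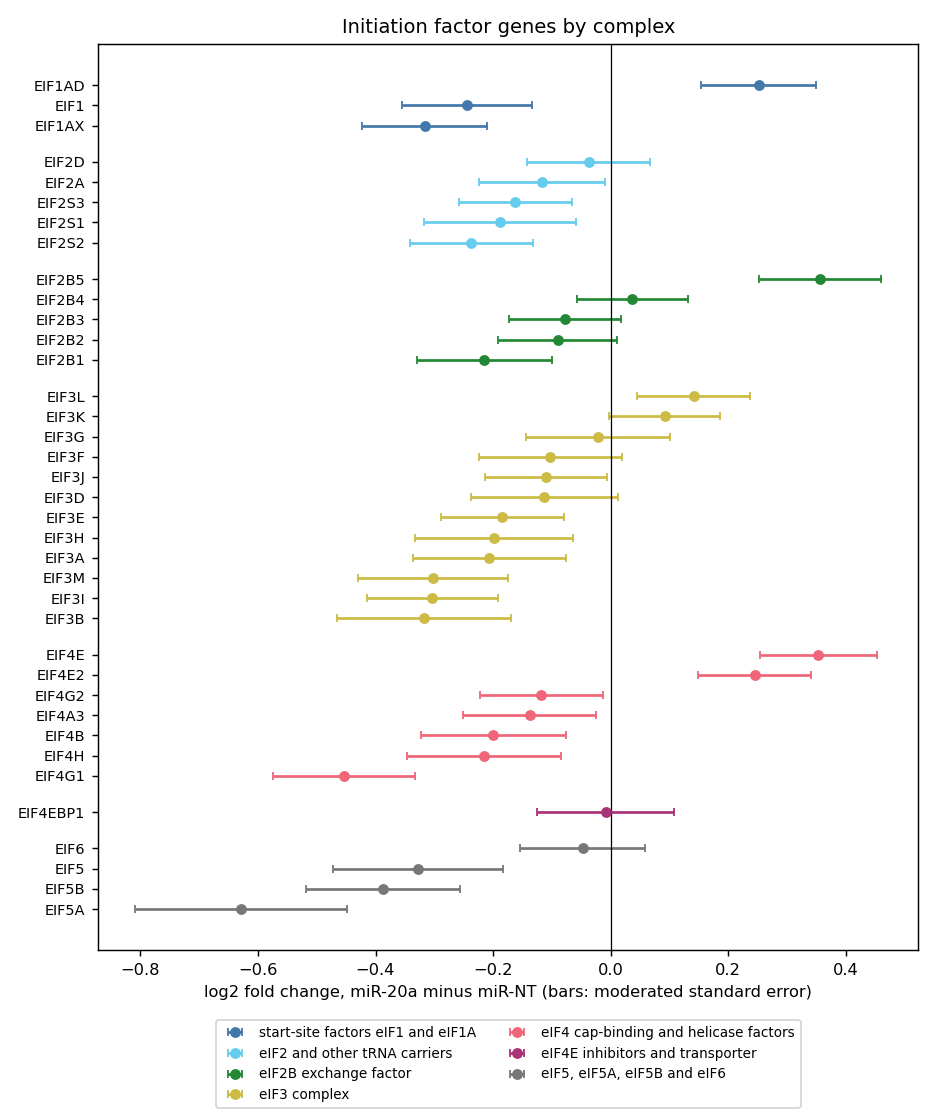
Log2 fold change of miR-20a minus miR-NT (x axis) for 37 tested initiation factor genes (rows, EIF1AY not shown), grouped and coloured by complex, with bars for the moderated standard error of the limma fit. Of the factors shown, 7 lie right of 0, led by EIF2B5 at 0.36 and EIF4E at 0.35, and EIF5A at −0.63 lies farthest left.

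Neither noncoding gene passed the test. EIF1B-AS1, transcribed opposite to EIF1B, read 6.71 and 6.75 in the miR-NT controls and 6.83 and 7.04 with miR-20a (log2 fold change 0.20, SE 0.11, limma adjusted p = 0.336). EIF3J-DT, which starts beside EIF3J on the other strand, had a log2 fold change of 0.01 (SE 0.10, limma adjusted p = 0.965). The last member left out as dim, the cap-binding relative EIF4E3, read 3.92 to 4.34 with overlapping groups.

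The 2 arrays of a group also differed from each other in most initiation factor genes. Replicate 2 was below replicate 1 in 34 of the 38 tested members in the miR-NT controls and in 34 of the 38 with miR-20a. Over all 12401 genes this held for 8246 in the miR-NT controls and 7309 with miR-20a. The median difference of the members was −0.09 within the miR-NT pair and −0.17 within the miR-20a pair, where all genes had −0.06 and −0.04. Within the miR-20a pair it was widest in eIF3, at −0.26, and in the eIF5 group, at −0.37. The array that read lower, miR-20a replicate 2, also had the lower 5' control signals, by 1.16 for ACTB and 0.87 for GAPDH on the log2 scale. Once the ACTB 5' signal was a covariate, the median log2 fold change of the members was 0.14, where that of all genes was 0.05.

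**Figure D4:**
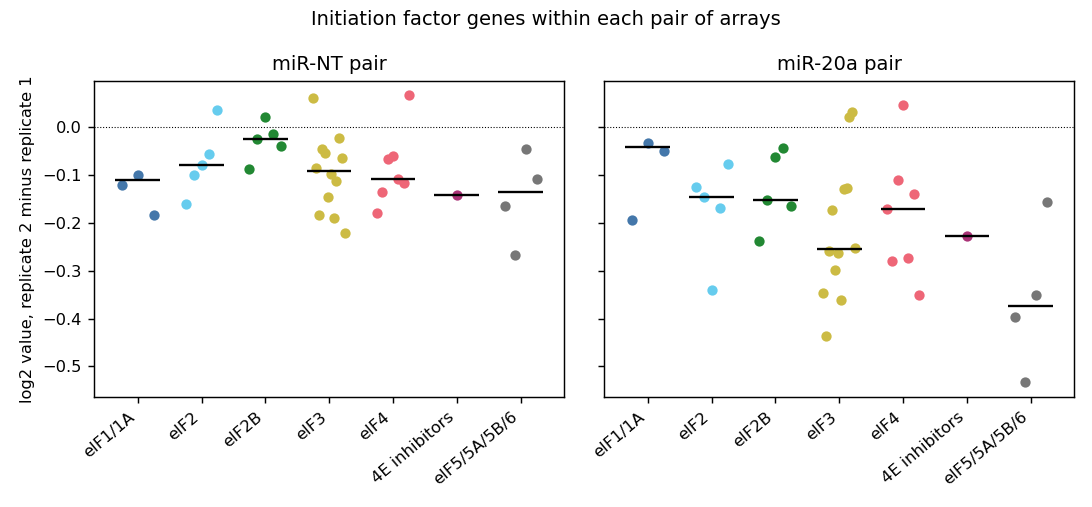
Difference between the arrays of a pair (replicate 2 minus replicate 1, log2, y axis) for the tested initiation factor genes by complex (x axis, EIF1AY not shown), with miR-NT on the left and miR-20a on the right. Points are genes and bars are medians over all tested members of a complex; in the miR-20a pair the eIF5 group has its bar at −0.37 and eIF3 at −0.26, and the lowest point is EIF5A at −0.53.

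The miR-20a arrays weighed unequally in the calls. With miR-20a replicate 1 left out, 9 members passed at a limma adjusted p under 0.05, all lower: EIF5A, EIF4G1, EIF5B, EIF3B, EIF5, EIF3M, EIF4H, EIF3A and EIF3H. In that fit 12.6% of all tested genes passed as lower and 2.44% as higher, and the spread of the miR-20a group was taken from the miR-NT pair. With miR-20a replicate 2 left out 0 members passed, where 1.86% of all tested genes passed as lower and 0.234% as higher, and the median of the members was −0.04. Among 37 tested members, 11 kept the sign of their log2 fold change in every alternative analysis that tested them, 13 for each but 12 for EIF3K, which was left out with the lowest 50% of genes. They were 4 lower (EIF1AX, EIF2S3, EIF3I and EIF4G1) and 7 higher (EIF1AD, EIF2B4, EIF2B5, EIF3K, EIF3L, EIF4E and EIF4E2). Of the 10 members with an unadjusted p under 0.05 in the deposited scale, EIF5A, EIF5B and EIF3M did not keep their sign, since each turned under the ACTB 5' covariate. EIF4G1 kept its sign but came as near to 0 as −0.038. The filters on dim genes, the prior, the choice of probe sets and the replicate block leave these log2 fold changes unchanged. Those alternatives could not turn a sign, and median centring shifted all genes alike by a small amount. Nor could leaving out an array turn any of the 11, since the groups of each did not overlap. The 10 members that turned after quantile normalization and the 26 under the ACTB 5' covariate all turned upward. Members above 0 were thus less exposed to a turn than those below, and the split into 7 and 4 is no evidence of direction. The share of all tested genes that kept their sign was not computed.

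The upstream sequences of EIF4E and EIF4G1 are shown because these partners of eIF4F differed in direction. They are the 250 bases before the annotated start, from RefSeq on GRCh38.p14, with the E-box CACGTG, the site letters read by MYC and related factors, in capitals. EIF4E has 1 annotated start in the table, and its stretch is chr4:98929134-98929383 on the minus strand. EIF4G1 has 3, of which the most upstream is shown, chr3:184314356-184314605 on the plus strand.
EIF4E: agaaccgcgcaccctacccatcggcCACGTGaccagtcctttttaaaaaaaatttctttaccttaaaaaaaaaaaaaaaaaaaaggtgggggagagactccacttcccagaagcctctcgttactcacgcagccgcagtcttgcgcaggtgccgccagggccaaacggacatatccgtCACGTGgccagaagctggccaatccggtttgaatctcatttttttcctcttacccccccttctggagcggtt
EIF4G1: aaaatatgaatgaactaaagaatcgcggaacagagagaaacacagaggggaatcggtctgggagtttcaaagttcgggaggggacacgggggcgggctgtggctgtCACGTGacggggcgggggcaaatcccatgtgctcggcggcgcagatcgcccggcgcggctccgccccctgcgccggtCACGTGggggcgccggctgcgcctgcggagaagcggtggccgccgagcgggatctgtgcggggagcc

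Each of these stretches holds 2 E-boxes, which begin 225 and 72 bases before the start in EIF4E and 144 and 67 bases before it in EIF4G1. The members with an E-box in any window of 250 bases before to 50 after a start were EIF1B, EIF2B3, EIF3F, EIF3K, EIF4A3, EIF4B, EIF4E, EIF4G1, EIF4H and EIF5A2, read on both strands. They made up 10 of 49 windows of the 35 members with a window, or 20.4%, against 9.15% of the windows of all tested genes. The 2 sets are unlike, since the members' windows include dim genes such as EIF1B and EIF5A2 that were not tested. Over all 35116 windows the share was 7.26%. The letters CCGGAAG, a form of the ETS site, were in 24.5% of the members' windows and 15.0% of those of tested genes. The GC box GGGCGG was in 71.4% and 62.6%, and CCAAT in 38.8% and 34.5%. Members with an E-box included genes that read higher and genes that read lower with miR-20a.

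Other genes of translation were taken from lists by role, and 0 of their tested members passed over all genes in either direction. The poly(A)-binding proteins and their partners close the loop between the tail and eIF4G. Their 6 tested members had a median log2 fold change of −0.18, all below 0 (background 53.8%). LARP1, which binds the cap of messages for ribosomal proteins and factors, read 10.72 and 10.55 in the miR-NT controls and 10.12 and 9.78 with miR-20a (log2 fold change −0.69, SE 0.14, limma adjusted p = 0.0963). PAIP2, a repressor of the poly(A)-binding protein, had −0.34 (SE 0.10). The kinases and phosphatase subunits that set eIF2 phosphorylation, with their cofactors, had a median of −0.16 over 12 tested members. Of these, 9 were below 0 (background 53.8%) and 3 above (background 46.2%). GCN1, the partner that activates the kinase GCN2, had the smallest p of this list (log2 fold change −0.70, SE 0.19, limma adjusted p = 0.143).

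In the mTORC1 and eIF4E control list, 10 of 15 tested members were below 0 (background 53.8%) and 5 above (background 46.2%), with a median of −0.11. RPS6KB1, the kinase that mTORC1 activates toward the ribosome, had −0.57 (SE 0.13, limma adjusted p = 0.117), and AKT1S1, an inhibitor within mTORC1, had −0.45 (SE 0.12, limma adjusted p = 0.138). Scanning helicases, re-initiation and recycling factors had a median of −0.10 over 8 tested members, with HBS1L, a ribosome rescue factor, at −0.48 (SE 0.14) and the helicase DDX3X at −0.68 (SE 0.20). The 3 termination factors were all below 0 (background 53.8%), with a median of −0.20 and GSPT1, the release factor eRF3a, at −0.29 (SE 0.11).

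Elongation and mitochondrial factors had medians above 0. The 5 tested elongation factors had a median of 0.12, 3 above 0 and 2 below, with EEF1D, an exchange factor for eEF1A, at 0.33 (SE 0.10, limma adjusted p = 0.168). The 6 tested mitochondrial translation factors had a median of 0.15, 4 above 0 and 2 below. TSFM, the mitochondrial elongation factor Ts, had 0.48 (SE 0.10, limma adjusted p = 0.0963) and GFM1, mitochondrial elongation factor G, −0.82 (SE 0.19, limma adjusted p = 0.117). Over all tested genes 53.8% were below 0 and 46.2% above. After quantile normalization the medians were −0.12 for the poly(A)-binding list, −0.046 for eIF2 phosphorylation and −0.0049 for mTORC1 and eIF4E control. They were 0.015 for scanning and recycling, −0.068 for termination, 0.22 for elongation and 0.20 for mitochondrial factors. Each list holds few genes and no difference between lists was tested.

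**Figure D5:**
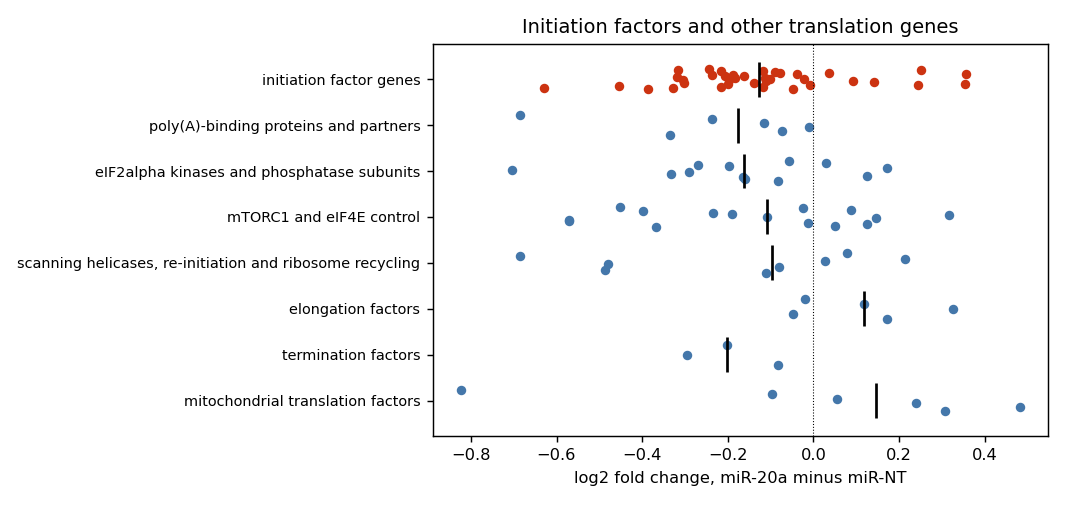
Log2 fold change of miR-20a minus miR-NT (x axis) for tested initiation factor genes (red, EIF1AY not shown) and for other translation genes by role (blue, rows), with 1 point per gene and a black line at the median of each list. The lines of the elongation and mitochondrial factors lie right of 0, at 0.12 and 0.15, and the others left of it.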

How the data were processed

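Per the labels the authors processed the arrays with the R package affy, and they deposited a log2 value for each probe set on each array. The package version, background correction, normalization and summarisation are not stated in the sources used here, and the log2 scale was judged from the range of the values. Samples were grouped by source name. Probe sets with 1 gene symbol (18060, while 886 with several were not used) were named through the platform annotation and the RefSeq gene table, where 18034 matched by gene identifier. The probe set with the highest mean stood for its gene, and the lowest 30% of genes by mean were left out.

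The test was limma 3.58.1 (R 4.3.3) with moderated two-sided statistics, with 2 residual and 5.53 prior degrees of freedom. Its p-values were adjusted by Benjamini-Hochberg over all 12401 genes. It was tried on simulated data with independent errors and no shift shared by a whole array. That simulation cannot show how the test behaves where arrays differ as a whole, as in the 5' control signals here. Lists are described by counts and medians, with no set test. With 2 arrays a group, their number limits the precision.

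The members, complexes and lists were chosen with earlier results of these data known. Values on each array are given for members with an unadjusted p under 0.05, the member with the smallest p of each complex, and EIF4E, EIF4G1, EIF2S1, EIF3A, EIF5A and EIF6 (EIF4A1, also chosen, was not used). A few others shown by array, such as EIF3L and EIF4H, were picked after their values were seen. For the other lists, up to 2 members with the smallest p are named. The alternatives changed the scaling (quantiles or medians made equal), the filter on dim genes (none, or the lowest 50%), the prior (a robust one with an intensity trend), the choice of probe sets (averaged per gene, or each tested alone) and the model (a replicate block, or the ACTB 5' signal as a term), or dropped 1 array.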

Additional observations from a re-analysis of the deposited data

How the results depend on the processing

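No initiation factor gene passed the limma test in the deposited scale or in any alternative with all 4 arrays. The number of genes passing among all those tested was 1 in the main analysis, 5 after quantile normalization, 47 after median centring, 4 with the lowest 50% left out, 24 with an intensity trend and a robust prior, 6 once the ACTB 5' signal was a covariate and 0 with the replicate number as a block. With an array left out it ranged from 0 to 1869, and the members passing from 0 to 9; those lower at an unadjusted p under 0.05 ranged from 0 to 17 (4.43% to 20.5% of all genes tested) and those higher from 0 to 3 (2.49% to 8.45%).

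The median log2 fold change of the members was −0.0046 after quantile normalization, 0.14 once the ACTB 5' signal was a covariate and −0.23 to −0.044 with an array left out; that of all genes was 0.027, 0.047 and −0.043 to −0.0058. After quantile normalization medians were 0.011 for eIF1 and eIF1A, −0.056 for eIF2, 0.024 for eIF2B and −0.031 for eIF3. They were −0.004 for the eIF4 factors, 0.095 for the eIF4E inhibitors and −0.26 for the eIF5 group. With no filter on dim genes eIF1 and eIF1A had 0.13. With the covariate, medians were 0.088 for eIF2, 0.13 for eIF2B, 0.20 for eIF3, 0.19 for the eIF4 factors, 0.34 for the eIF4E inhibitors and 0.19 for the eIF5 group, and 0 members were lower and 2 higher at an unadjusted p under 0.05 (3.46% and 3.36% of all genes tested). With an array left out, medians ranged from −0.091 to −0.025 for eIF1 and eIF1A, −0.20 to −0.054 for eIF2, −0.11 to −0.015 for eIF2B, −0.26 to −0.025 for eIF3, −0.22 to −0.048 for the eIF4 factors, −0.12 to 0.11 for the eIF4E inhibitors, −0.54 to −0.17 for the eIF5 group.

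After quantile normalization 10 members turned from below to above 0, to log2 fold changes of EIF2A 0.031, EIF2D 0.059, EIF2B2 0.0012, EIF2B3 0.024, EIF3D 0.014, EIF3F 0.023, EIF3G 0.12, EIF4A3 0.0034, EIF4EBP1 0.095 and EIF6 0.084. Under the ACTB 5' covariate 26 members turned above 0, at EIF1 0.056, EIF2A 0.088, EIF2D 0.19, EIF2S1 0.32, EIF2S2 0.018, EIF2B1 0.15, EIF2B2 0.13, EIF2B3 0.0088, EIF3A 0.29, EIF3B 0.33, EIF3D 0.29, EIF3E 0.075, EIF3F 0.34, EIF3G 0.38, EIF3H 0.34, EIF3J 0.092, EIF3M 0.10, EIF4A3 0.14, EIF4B 0.23, EIF4G2 0.10, EIF4H 0.29, EIF4EBP1 0.34, EIF5 0.28, EIF5A 0.19, EIF5B 0.13 and EIF6 0.20. The ACTB 5' signal did not overlap between the groups, so the covariate takes up part of their difference. With an array left out 6 members turned, with ranges of −0.11 to 0.036 for EIF2D, −0.24 to 0.017 for EIF3D, −0.25 to 0.046 for EIF3F, −0.15 to 0.11 for EIF3G, −0.12 to 0.11 for EIF4EBP1, −0.13 to 0.031 for EIF6. The cause was not tested. The replicate numbers are shared between the groups, but no label says that they pair the arrays. Deviations of same-numbered arrays correlated at 0.267 over 12401 genes. With the replicate block 0 genes passed, among them 0 members, and the log2 fold changes were the same by construction; 9 members were lower and 4 higher at an unadjusted p under 0.05 (17.2% and 8.26% of all genes tested). Arrays number 2 a group, and probe sets near background limit what can be said of the 5 dim members.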
